A study of Homo sapiens with 6 samples.

Results

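The 10 genes described here encode secreted TGF-beta ligands (TGFB1, TGFB2), latent TGF-beta binding proteins (LTBP2, LTBP3), receptors (TGFBR1, TGFBR2), the corepressors SKI and SKIL, and the TGF-beta target genes PMEPA1 and TGFBI. They were taken by name from a count table of 58735 rows, each name matched a single row, and all 10 were among the 16081 genes that passed the filter on low counts. Polyadenylated RNA was sequenced from MDA-MB-231 cells, an established human line of triple-negative breast cancer with mesenchymal features. Cells received either the vehicle DMSO or 2 µM Azeliragon for 72 h, the latter a compound that blocks RAGE, a receptor that binds advanced glycation end products. The 3 libraries of a condition carry the letters a, b and c, and the labels do not say whether they came from separate cultures, so the p-values rest on the spread among these libraries alone, and that spread may be technical. No TGF-beta was added and no TGF-beta inhibitor was used in any group, as far as the labels say. In bulk RNA, fewer expressing cells and less RNA per cell cannot be told apart.

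TGF-beta is secreted bound to its own propeptide, and latent binding proteins tether that complex to the extracellular matrix until integrins or proteases release the ligand. Free ligand brings together the type II receptor (TGFBR2) and the type I receptor (TGFBR1), which phosphorylates SMAD2 and SMAD3, and these enter the nucleus with SMAD4. SKI and SKIL hold SMAD target genes down, and PMEPA1, a target itself, limits receptor signalling. In breast cancer the pathway is known both for restraining early growth and for promoting invasion and metastasis in advanced disease.

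Library totals ran from 41455979 to 44313584 counts, and the 10 genes held between 312 and 12569 reads each per library. The line's mesenchymal markers VIM (2036 ± 253 CPM in DMSO, SD, n = 3) and CD44 (587 ± 11 CPM) were abundant, whereas CDH1 had 1 read and PGR 0 reads in all 6 libraries together. Of the other markers chosen as absent or low, ESR1 had 38 reads in all. EPCAM (8.97 ± 0.71 CPM in DMSO, SD, n = 3) and ERBB2 (109 ± 5.3 CPM) were present. Levels are given as TMM-scaled CPM. On the first principal component of all tested genes DMSO b and c scored 30.1 and 33.7 and the Azeliragon libraries -23.0 to -19.0. DMSO a scored -0.23, apart from both sets. Markers of cells that a culture of this line should not hold were low, with summed levels of 0.868 to 1.599 CPM for 5 leukocyte genes, 3.15 to 6.29 CPM for 5 endothelial genes and 6.05 to 11.9 CPM for 5 fibroblast genes over the libraries. The fibroblast sum came mostly from PDGFRB, and PDGFRA and FAP had 0 reads. It lay between 9.73 and 11.9 CPM in DMSO and between 6.05 and 7.34 CPM with Azeliragon, the leukocyte sum between 1.24 and 1.599 and between 0.868 and 1.08 CPM, and the endothelial sum between 3.15 and 4.50 and between 5.96 and 6.29 CPM. The leukocyte sum came mostly from CD14, and the endothelial sum mostly from KDR (means of 3.26 and 5.33 CPM, DMSO first). PECAM1 (0.326 and 0.178) and TEK (0.023 and 0) went the other way from KDR, and CDH5 and VWF went with it. The part of these marker differences in the results was not tested.

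With Azeliragon, PMEPA1 and TGFBI fell by about the same factor, 2.13-fold and 2.12-fold, TGFB1, SKIL and LTBP3 fell by less, and TGFB2 rose 1.37-fold. Both receptors, SKI and LTBP2 did not pass the threshold. In all, 5 of the 10 genes were lower, 1 was higher and 4 did not pass (edgeR quasi-likelihood test, Benjamini-Hochberg adjusted p under 0.05 over all genes tested). Over all 16081 genes the share called was 6.27%, with 3.53% lower and 2.75% higher. The median log2 fold change was -0.38 for the 10 genes and -0.0040 for all genes tested. In 7 of the 10 genes the libraries of the conditions did not overlap, which held for 25.3% of all genes tested. The genes were chosen with results of these data known, so their counts do not support a statement about the pathway as a whole. Without Azeliragon a or Azeliragon b, 3 of the 10 genes passed, where 2.68% and 3.01% of all genes did.

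**Figure D1:**
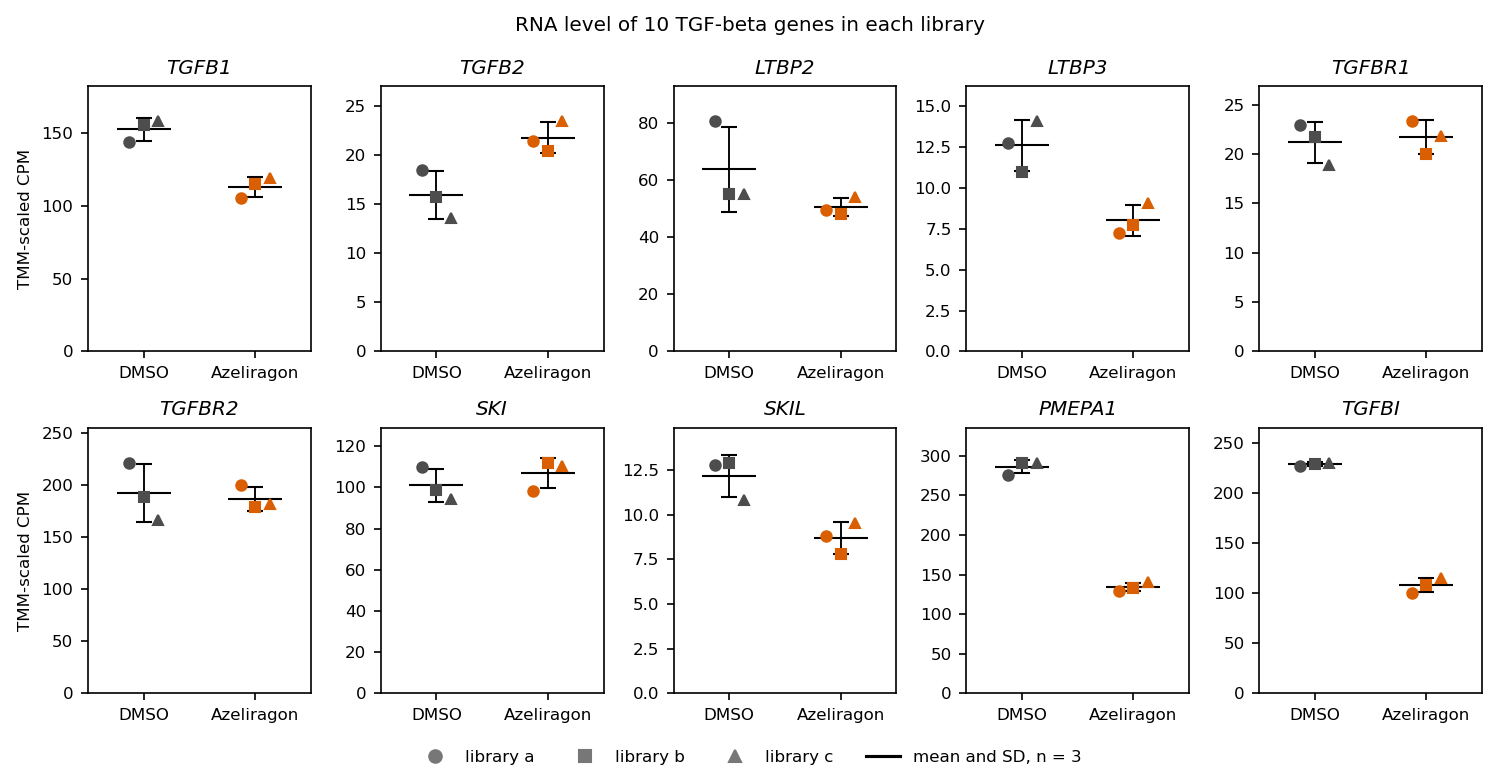
TMM-scaled CPM (vertical axis, from 0) of the 10 genes in the 3 DMSO libraries (grey) and the 3 Azeliragon libraries (orange), with marker shape for the library letter and a bar for the mean and SD (n = 3). PMEPA1 and TGFBI show the widest gaps between conditions, and LTBP2, TGFB2 and TGFBR2 are among those that show DMSO a above DMSO b and c.

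TGFB1, the most abundant of the ligands, read 144, 156 and 158 CPM in DMSO a, b and c and 105, 115 and 119 CPM in Azeliragon a, b and c. Every Azeliragon library was below every DMSO library. The level fell 1.35-fold, the means being 153 ± 7.9 and 113 ± 7.0 CPM (SD, n = 3; log2 fold change -0.44, SE 0.07; edgeR adjusted p = 0.00290). The call held with each library left out in turn, with an adjusted p of at most 0.0365. TGFB1 (ENSG00000105329; chr19:41301587-41353911, minus strand, in GRCh38 with GENCODE 29) shares exon sequence with HNRNPUL1 on the opposite strand, so its count is uncertain. HNRNPUL1 had means of 726 ± 22 and 735 ± 14 CPM (SD, n = 3 each; DMSO first) and did not pass (edgeR adjusted p = 0.898).

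TGFB2, a second isoform of the ligand, moved the other way. It read 18.5, 15.8 and 13.6 CPM in DMSO a, b and c and 21.4, 20.5 and 23.5 CPM in Azeliragon a, b and c. The conditions did not overlap, although DMSO a, the highest of the DMSO libraries, was close to the lowest Azeliragon library. The rise was 1.37-fold (log2 fold change 0.45, SE 0.11; edgeR adjusted p = 0.0356). Of the 6 sets of 5 libraries, the set without DMSO a alone kept the call (edgeR adjusted p up to 0.177 in the others), and without DMSO a the log2 fold change was 0.57. In that set 23.7% of all genes were called, against 6.27% with all 6 libraries. The TGFB2 call was also lost when libraries were scaled by their totals alone (edgeR adjusted p = 0.0617). TGFB2 (chr1:218346235-218444619, plus strand) overlaps TGFB2-OT1, which had 0 reads in every library.

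The makeup of the ligand RNA was compared per kilobase of exon, with TGFB3, the remaining isoform (1.74 ± 0.33 CPM in DMSO and 1.86 ± 0.22 with Azeliragon), included in the sum. TGFB2 made up 7.42%, 5.93% and 5.09% of ligand RNA in DMSO a, b and c and 11.2%, 9.98% and 10.9% in Azeliragon a, b and c. All Azeliragon libraries were above all DMSO libraries. The mean share went from 6.15% ± 1.18 to 10.7% ± 0.66 (SD, n = 3 each; exact two-sided permutation p = 0.1, the smallest that 3 against 3 can give; adjusted p = 0.2 over 4 such comparisons of ratios and shares). TGFB1 remained the main ligand in both conditions, at 47.1 ± 2.4 CPM per kilobase in DMSO and 34.9 ± 2.2 with Azeliragon, against 3.10 ± 0.47 and 4.23 ± 0.30 for TGFB2.

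**Figure D2:**
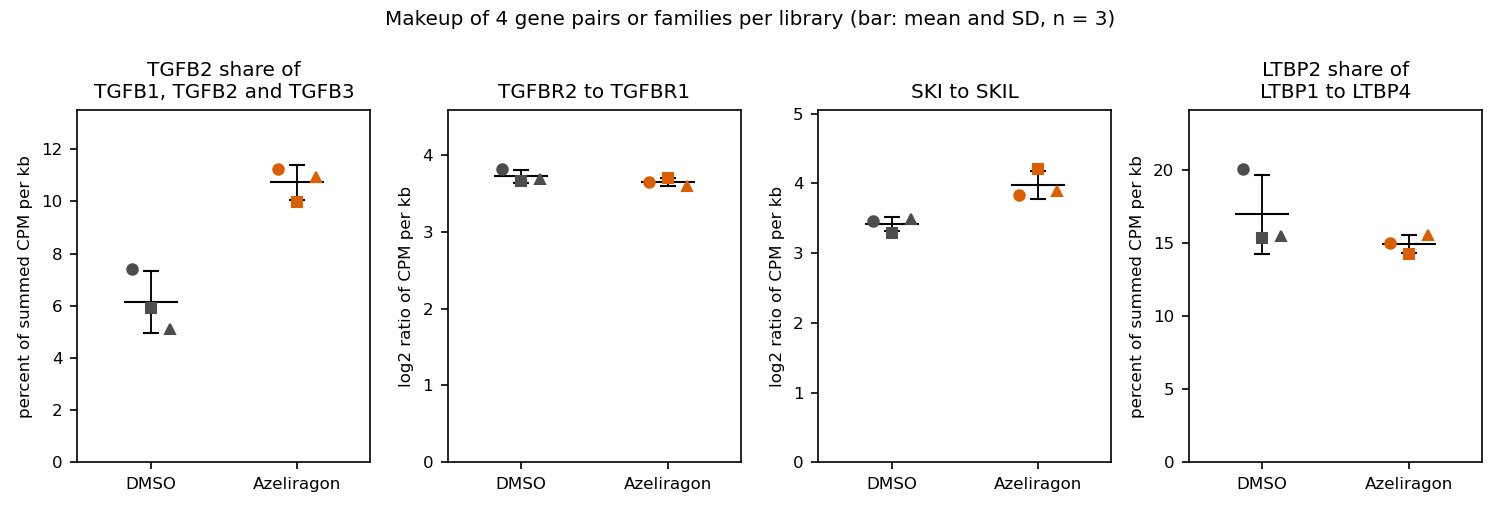
Per-library makeup of TGF-beta ligand RNA (TGFB2 share in percent), log2 ratio of TGFBR2 to TGFBR1, log2 ratio of SKI to SKIL, and LTBP2 share of LTBP1 to LTBP4 RNA in percent, all from CPM per kilobase of exon, with bars for the mean and SD (n = 3). The TGFB2 share and the SKI to SKIL ratio do not overlap between conditions, and the other panels do.

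LTBP3, a latent binding protein that carries TGF-beta into the matrix, fell 1.57-fold. It read 12.7, 10.98 and 14.1 CPM in DMSO a, b and c and 7.26, 7.75 and 9.09 CPM in Azeliragon a, b and c, with no overlap. The means were 12.6 ± 1.6 and 8.03 ± 0.95 CPM (SD, n = 3 each; log2 fold change -0.65, SE 0.13; edgeR adjusted p = 0.00853). Leaving out Azeliragon a or Azeliragon b ended the call (edgeR adjusted p up to 0.0686). LTBP3 maps to chr11:65538805-65558930 (minus strand) and LTBP2, described next, to chr14:74498170-74612378 (minus strand).

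LTBP2, a matrix protein of the same family that does not itself bind latent TGF-beta covalently, read 80.8, 55.2 and 55.2 CPM in DMSO a, b and c. In Azeliragon a, b and c it read 49.6, 48.2 and 54.2 CPM. The Azeliragon libraries were all lower, but DMSO a was 1.46-fold above the mean of the other DMSO libraries, and DMSO b and c were close to Azeliragon c. LTBP2 did not pass (log2 fold change -0.33; 95% confidence limits -0.61 and -0.05; edgeR adjusted p = 0.170), and without DMSO a the log2 fold change was -0.12. It passed without the filter on low counts (log2 fold change -0.33; edgeR adjusted p = 0.00369) and after removal of the trends on GC content and on length (-0.36; adjusted p = 0.0114 in the same test). The LTBP2 share of RNA from LTBP1 to LTBP4 averaged 16.9% ± 2.7 and 14.9% ± 0.64 (SD, n = 3, DMSO first; exact two-sided permutation p = 0.3; adjusted p = 0.3 over 4 comparisons), a difference of -2.03 percentage points that came to -0.48 without DMSO a. LTBP4, another latent binding protein, had a mean of 239 ± 9.0 CPM in the DMSO libraries and 229 ± 6.9 CPM in the Azeliragon libraries (SD, n = 3; edgeR adjusted p = 0.630).

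Neither receptor differed beyond the spread between libraries. TGFBR2, the type II receptor at chr3:30606502-30694142 (plus strand), read 222, 189 and 167 CPM in DMSO a, b and c and 200.2, 179 and 181 CPM in Azeliragon a, b and c. The DMSO libraries spanned the Azeliragon libraries, with DMSO a 1.25-fold above the mean of DMSO b and c. The log2 fold change was -0.04, with a 95% interval of -0.25 to 0.16 (edgeR adjusted p = 0.850). Without DMSO a the sign turned, to 0.07. TGFBR1, the type I receptor at chr9:99104038-99154192 (plus strand), read 22.9, 21.7 and 18.9 CPM in DMSO a, b and c and 23.4, 19.99 and 21.8 CPM in Azeliragon a, b and c. These values overlapped throughout (log2 fold change 0.04; 95% confidence limits -0.18 and 0.25; edgeR adjusted p = 0.883). Over the sets of 5 libraries that of TGFBR1 lay between -0.04 and 0.10. Per kilobase of exon, TGFBR2 RNA was 13.2 times TGFBR1 RNA in DMSO and 12.5 times with Azeliragon. The log2 ratio was 3.72 ± 0.08 and 3.65 ± 0.05 (SD, n = 3 each; exact two-sided permutation p = 0.3; adjusted p = 0.3 over 4 comparisons).

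Of the SMAD corepressors, SKIL was called lower and SKI did not pass. SKIL, itself induced by TGF-beta in many cells as a feedback inhibitor, read 12.8, 12.9 and 10.8 CPM in DMSO a, b and c and 8.82, 7.77 and 9.55 CPM in Azeliragon a, b and c. The conditions did not overlap, and SKIL fell 1.40-fold (log2 fold change -0.48, SE 0.12; edgeR adjusted p = 0.0295). Leaving out DMSO b, or any one of the Azeliragon libraries, ended this call (edgeR adjusted p up to 0.152). SKI, its paralogue, read 109.9, 98.9 and 94.3 CPM in DMSO and 98.5, 112.0 and 110.4 CPM with Azeliragon, in the order a, b, c. The conditions overlapped (log2 fold change 0.08; 95% confidence limits -0.09 and 0.25; edgeR adjusted p = 0.603). Per kilobase of exon the ratio of SKI to SKIL was 10.6 in DMSO and 15.7 with Azeliragon. On the log2 scale it was 3.46, 3.29 and 3.48 in DMSO a, b and c and 3.84, 4.21 and 3.89 in Azeliragon a, b and c. All Azeliragon libraries were higher (difference 0.56; exact two-sided permutation p = 0.1, the smallest possible here; adjusted p = 0.2 over 4 comparisons). SKIL maps to chr3:170357678-170396835 and SKI to chr1:2228695-2310119, both plus strand.

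PMEPA1, a membrane protein that binds receptor-activated SMADs and limits their access to the receptor, showed the smallest p of the 10 genes. It read 276, 290.4 and 291 CPM in DMSO a, b and c and 129.8, 133 and 140.0 CPM in Azeliragon a, b and c. The gap between conditions was many times the spread within them. The level fell from 286 ± 8.4 to 134 ± 5.2 CPM (SD, n = 3 each; log2 fold change -1.09, SE 0.06; edgeR adjusted p = 4.22e-06), and the gene ranked 2 by p of the 16081 tested. Over the 6 sets of 5 libraries the log2 fold change ran from -1.12 to -1.06. PMEPA1 maps to chr20:57648392-57711536 (minus strand), and the noncoding gene NKILA overlaps its 5′ end from the opposite strand (chr20:57710183-57712780). NKILA had means of 2.19 ± 0.64 and 1.07 ± 0.35 CPM (SD, n = 3; DMSO first) and did not pass (log2 fold change -1.03; edgeR adjusted p = 0.0651). Without a stated strand setting, reads in the shared stretch cannot be assigned to either gene.

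TGFBI, a secreted matrix protein named for its induction by TGF-beta, read 228, 229.6 and 231 CPM in DMSO a, b and c and 100.7, 109 and 115 CPM in Azeliragon a, b and c. DMSO a did not stand apart for this gene, and the conditions were far apart. The level fell from 229 ± 1.5 to 108 ± 7.3 CPM (SD, n = 3 each; log2 fold change -1.08, SE 0.07; edgeR adjusted p = 4.22e-06), and the log2 fold change lay between -1.13 and -1.03 with each library left out. TGFBI maps to chr5:136028895-136063818 (plus strand), with no exon shared with another gene. Among 10186 genes averaging 5 CPM or more, the profile nearest to that of TGFBI over the 6 libraries was that of PMEPA1, with a root mean square difference of 0.033 between centred log2 CPM values. KRT7 (0.066) and ID1 (0.087) came next. For PMEPA1 the nearest were TGFBI, KRT7 (0.057) and HLA-DRA (0.067). These distances describe 6 libraries in 2 conditions and carry no test.

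**Figure D3:**
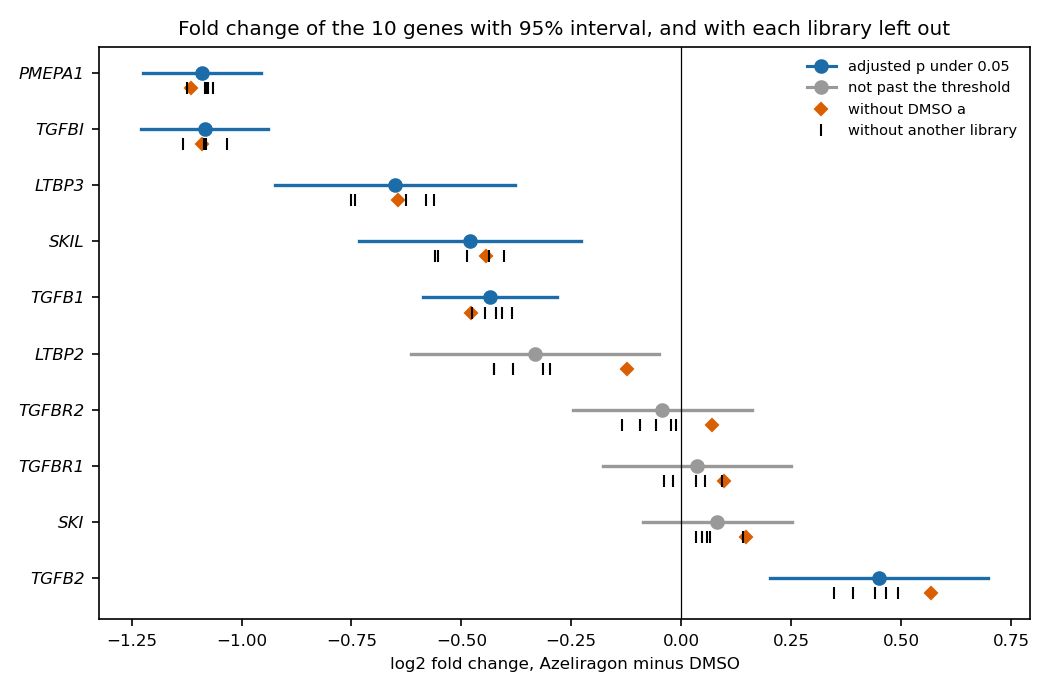
Log2 fold change (horizontal axis, Azeliragon minus DMSO) of the 10 genes with its 95% interval, blue where the adjusted p was under 0.05 and grey otherwise. Ticks below each line are the values with 1 library left out, and the orange diamond is the value without DMSO a. For LTBP2, TGFB2 and TGFBR2 the diamond stands clear of the other values.

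The promoter sequences of the genes that fell and that bear SMAD feedback or target roles, with TGFB1, are shown because these genes moved in the same direction. RefSeq promoter windows (GRCh38.p14, 250 bases before to 50 after each start) were found for 9 of the 10 genes, 21 windows in all. For each, a stretch before a start site that lies outside every annotated exon is printed 5′ to 3′ in the direction of the gene, in lower case, with any match to the motifs searched in capitals. The stretches are chr5:136028738-136028894 on the plus strand for TGFBI, chr20:57690687-57690936 on the minus strand for PMEPA1, chr3:170357465-170357677 on the plus strand for SKIL and chr19:41353923-41354168 on the minus strand for TGFB1.
TGFBI: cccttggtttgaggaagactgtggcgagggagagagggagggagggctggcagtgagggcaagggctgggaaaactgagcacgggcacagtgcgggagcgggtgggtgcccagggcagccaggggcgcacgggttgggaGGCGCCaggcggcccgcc
PMEPA1: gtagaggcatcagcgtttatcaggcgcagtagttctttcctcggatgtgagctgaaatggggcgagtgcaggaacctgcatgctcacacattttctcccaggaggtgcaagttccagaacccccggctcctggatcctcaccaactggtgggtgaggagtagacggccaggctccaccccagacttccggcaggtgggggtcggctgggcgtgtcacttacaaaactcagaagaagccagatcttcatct
SKIL: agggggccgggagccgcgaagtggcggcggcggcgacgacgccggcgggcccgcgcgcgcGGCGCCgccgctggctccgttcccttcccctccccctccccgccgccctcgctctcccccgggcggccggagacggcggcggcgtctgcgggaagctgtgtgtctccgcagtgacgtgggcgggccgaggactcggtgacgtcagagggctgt
TGFB1: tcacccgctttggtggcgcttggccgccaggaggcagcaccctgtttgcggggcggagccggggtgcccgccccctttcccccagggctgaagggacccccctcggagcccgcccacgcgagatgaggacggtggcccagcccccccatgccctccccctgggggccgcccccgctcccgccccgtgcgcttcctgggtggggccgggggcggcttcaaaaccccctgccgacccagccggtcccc
The motifs were the SMAD boxes CAGACA and AGCCAGACA, the SMAD palindrome GTCTAGAC, the GC-rich SMAD form GGCGCC and the AP-1 site TGAGTCA, each on both strands. GGCGCC, which reads the same on both strands, stood at -111 to -106 from the start site of TGFBI and at -190 to -185 of SKIL. PMEPA1 has several start sites, and the printed stretch stands before an internal one, within the gene's coordinates and away from its 5′ end. Nearer the 5′ end, GGCGCC stood at -207 to -202 of one start site and CAGACA at -115 to -110 of another. Both lie in stretches that are annotated as exon and are not printed. An exon of NKILA, on the opposite strand, covers both (chr20:57710183-57712780), and the GGCGCC match lies beyond the annotated 5′ end of PMEPA1. A further window there (chr20:57709966-57710265) held none of these motifs and is not printed. None of these motifs was in the TGFB1 window, nor in the windows of LTBP3, which also fell and is not printed. Outside these genes, the window of TGFBR2, which did not pass, held TGAGTCA at -6 to 1, and that of TGFB2, which rose, held CAGACA at -53 to -48. TGFBR1, which did not pass, held CAGACA and GGCGCC in different windows, and LTBP2 held GGCGCC. Among all 35116 windows, 16.9% held CAGACA, 0.288% AGCCAGACA, 0.202% GTCTAGAC, 19.2% GGCGCC and 4.95% TGAGTCA. The longer SMAD box and the palindrome were in no window of the 10 genes. A match is a description of the letters and not of a bound site.

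Per kilobase of exon, the order of the levels differed between conditions. In DMSO it ran PMEPA1 (50.9 ± 1.5 CPM per kilobase), TGFB1 (47.1 ± 2.4), TGFBR2 (40.9 ± 5.8), TGFBI (29.4 ± 0.20), SKI (16.6 ± 1.3), LTBP2 (7.01 ± 1.63), TGFB2 (3.10 ± 0.47), TGFBR1 (3.09 ± 0.30), SKIL (1.56 ± 0.15) and LTBP3 (1.22 ± 0.15; SD, n = 3 each). The libraries of TGFB1 and TGFBR2 overlapped, as did those of TGFB2 and TGFBR1. With Azeliragon, TGFBR2 (39.7 ± 2.5) came first, followed by TGFB1 (34.9 ± 2.2), PMEPA1 (23.9 ± 0.93), SKI (17.6 ± 1.2) and TGFBI (13.9 ± 0.93), and no neighbours in the order overlapped. Exon length was the union of all annotated exons. Per kilobase of the longest transcript, TGFBI stood at 49.2 in DMSO, above TGFBR2 at 41.6, and LTBP3 at 2.84, above SKIL at 1.69. On that scale TGFB1 (40.8) and TGFBR2 (40.4) were close with Azeliragon.

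A further 89 genes of the pathway, listed by role, were read from the same fit. Of the 76 tested, 13 fell, 6 rose and 57 did not pass, with a median log2 fold change of -0.07, where 3.53% of all genes were lower and 2.75% higher. The remaining 13, among them CDKN2B and NOX4 at 0 reads, were too low to test. By the same test 11 of these 19 calls held with each library left out in turn. Leaving out DMSO a gave 36 calls, DMSO b 12, Azeliragon b 12 and Azeliragon c 11, and the share called over all genes moved with them, to 23.7%, 2.86%, 3.01% and 2.70%. Of the 19 genes, 8 share exon sequence with a gene on the opposite strand, so their counts are uncertain.

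Among other ligands and their processing, 1 of 5 tested genes fell and 1 rose, where 3.53% of all genes were lower and 2.75% higher. BMP4, a bone morphogenetic protein of the TGF-beta superfamily, read 270.2, 284 and 301 CPM in DMSO a, b and c and 159.7, 157 and 164 CPM in Azeliragon a, b and c. It fell 1.78-fold (log2 fold change -0.83, SE 0.06; edgeR adjusted p = 2.25e-05), with the conditions far apart. GDF11, an activin-like ligand, rose 1.27-fold, with means of 16.5 ± 0.75 and 21.0 ± 1.2 CPM (SD, n = 3; edgeR adjusted p = 0.0340). This call was kept without DMSO a, where 23.7% of all genes passed. It was lost without each of the other libraries (edgeR adjusted p up to 0.179) and after removal of the GC and length trends (0.0776). The growth factor GDF15 (log2 fold change 0.21), the convertase FURIN, which cleaves the TGF-beta precursor (-0.14), and TGFB3 (0.10) did not pass. Of 8 tested genes of the latent complex and its activation, ITGB5, an integrin subunit, fell 1.25-fold, with means of 241 ± 8.6 and 193 ± 9.1 CPM (SD, n = 3; edgeR adjusted p = 0.00899), a call lost without any single Azeliragon library (edgeR adjusted p up to 0.0847). THBS1, a matrix protein that can activate latent TGF-beta (-0.20), LTBP4 (-0.06) and the integrin subunit ITGAV (-0.13) did not pass. THBS1 passed without the filter on low counts (edgeR adjusted p = 0.0404) and after removal of the GC and length trends (-0.28; adjusted p = 0.00265 in that fit).

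No other receptor or SMAD gene was called in the edgeR fit on all 6 libraries, where 6.27% of all genes were. At that share, a count of 0 in lists this short does not set these genes apart. Among 8 tested receptors and co-receptors the count was 0, with 2 at an unadjusted p under 0.05, and 0 by DESeq2 and by limma-voom. Among 12 tested SMADs and SMAD partners it was 0 by edgeR, DESeq2 and limma-voom, with 0 at an unadjusted p under 0.05. Without DMSO a, 2 of these receptors (TGFBR3 and ACVR1B) and 4 of these SMADs and partners (SP1, CREBBP, EP300 and RUNX1) passed, where 23.7% of all genes did. Without the filter on low counts ACVR1B (edgeR adjusted p = 0.0218) and CREBBP (0.0316) passed. SMAD3, a main carrier of TGF-beta signals, had means of 161 ± 12 and 149 ± 4.2 CPM in the DMSO and Azeliragon libraries (SD, n = 3; log2 fold change -0.11; 95% confidence limits -0.26 and 0.04; edgeR adjusted p = 0.391). The coactivator CREBBP (log2 fold change 0.24) and RUNX1 (0.12) did not pass, nor did the receptors ACVR1 (0.01), ACVR1B (0.34) and BMPR1A (0.03).

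Of 13 further inhibitors tested, 1 rose and none fell, where 6.27% of all genes were called. DESeq2 and limma-voom each called 2 of them. NEDD4L, a ubiquitin ligase that marks activated SMADs for destruction, read 289, 247 and 255 CPM in DMSO a, b and c and 404, 395 and 398 CPM in Azeliragon a, b and c. It rose 1.51-fold (log2 fold change 0.60, SE 0.07; edgeR adjusted p = 0.000273), and every Azeliragon library was above every DMSO library. The ubiquitin ligases SMURF1 (log2 fold change -0.04) and SMURF2 (0.15) and the type I receptor partner FKBP1A (-0.12) did not pass. SMAD6, at low levels, had means of 2.19 ± 0.22 and 1.07 ± 0.47 CPM without overlap (SD, n = 3, DMSO first). It did not pass either (log2 fold change -1.03, edgeR adjusted p = 0.0570). Without DMSO a, 5 of the 13 inhibitors passed, where 23.7% of all genes did. These were NEDD4L, SMAD6, PPM1A, SMURF2 (edgeR adjusted p = 0.0154) and FKBP1A (0.0177).

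The listed target genes moved in both directions. Of 30 tested, 11 fell, 4 rose and 15 did not pass, and the median log2 fold change was -0.24. Over all genes tested, 3.53% were lower and 2.75% higher. The list was drawn up with earlier results of these data known, so these counts do not support a statement about TGF-beta targets as a whole. SNAI1, which encodes the transcription factor SNAIL, fell most, with a log2 fold change of -2.12 (SE 0.33; edgeR adjusted p = 0.00236), at 0.313 to 0.651 CPM with Azeliragon against 1.62 to 2.11 CPM in DMSO. ANGPTL4, a secreted regulator of lipoprotein lipase, fell 2.98-fold, and ID1, an inhibitor of basic helix-loop-helix factors, fell 2.15-fold. Their means were 9.64 ± 1.9 and 3.23 ± 0.295 CPM for ANGPTL4 and 56.7 ± 3.1 and 26.4 ± 3.5 CPM for ID1 (SD, n = 3; DMSO first). COL1A1, a fibrillar collagen chain, fell 1.70-fold. The transcriptional regulators BHLHE40, KLF10, JUNB and TSC22D1 fell by 1.51-fold, 1.47-fold, 1.41-fold and 1.26-fold. The calls of these 8 genes held with each library left out. ID3 (1.57-fold), TAGLN (1.25-fold) and TIMP1 (1.26-fold) also fell, but leaving out DMSO b, Azeliragon a or Azeliragon c ended each of these calls, as did leaving out Azeliragon b for TAGLN and TIMP1 and DMSO c for TIMP1. The TAGLN call was also lost with library totals (edgeR adjusted p = 0.0653), without the filter (0.0683) and by limma-voom (0.0507).

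IL11, a cytokine induced by TGF-beta in bone-metastatic breast cancer cells, rose 1.79-fold, the largest rise among these targets. It read 32.2, 30.6 and 37.2 CPM in DMSO a, b and c and 59.5, 62.1 and 57.3 CPM in Azeliragon a, b and c, with no overlap (log2 fold change 0.84, SE 0.09; edgeR adjusted p = 0.000120). CYR61 (also CCN1), a matricellular protein, rose 1.23-fold and CCND1, the G1 cyclin D1, rose 1.22-fold. Leaving out DMSO b or any one of the Azeliragon libraries ended the call of CCND1, and that of CYR61 ended on leaving out DMSO b, Azeliragon b or Azeliragon c. CTGF (also CCN2), FN1 (-0.06) and ITGB1 (0.04) did not pass. For CTGF (log2 fold change 0.19; edgeR adjusted p = 0.0893) the adjusted p was 0.0478 without the filter, 0.0468 by DESeq2, 0.0182 after removal of the GC and length trends and 0.00923 without DMSO a. In the set without DMSO a, 23.7% of all genes passed.

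**Figure D4:**
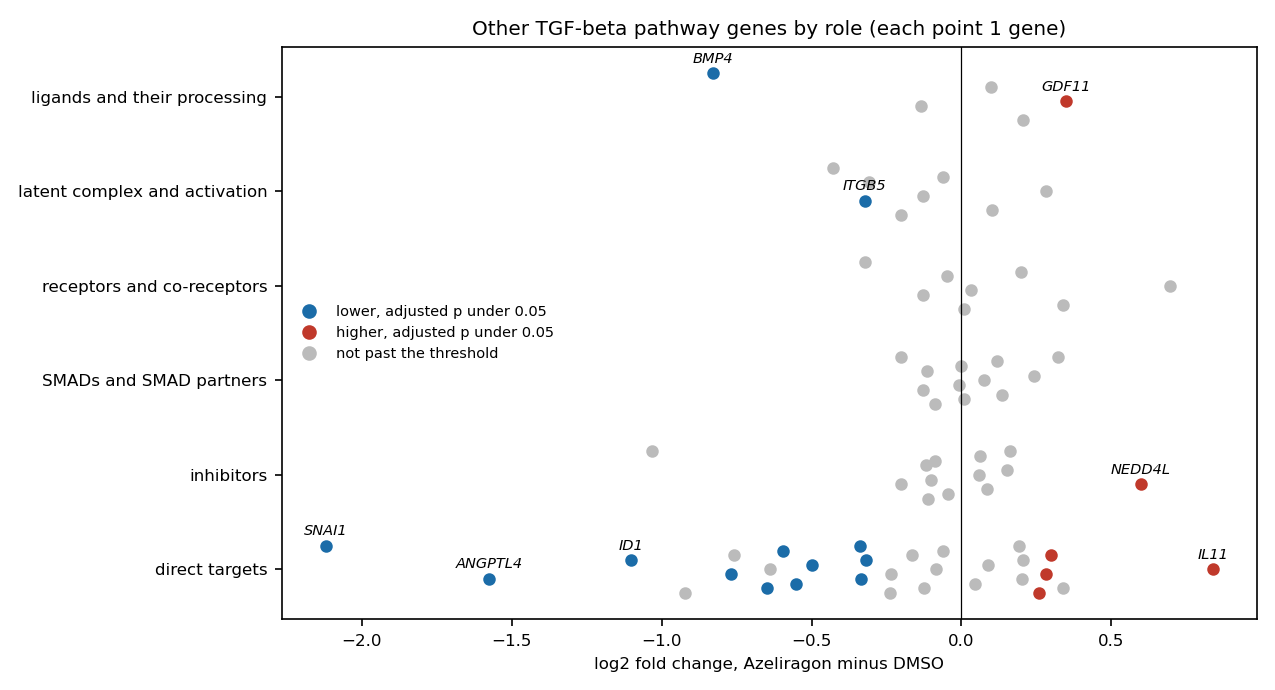
Log2 fold change (horizontal axis, Azeliragon minus DMSO) of the 76 tested further pathway genes by role, each point 1 gene, blue where lower and red where higher at an adjusted p under 0.05 and grey otherwise. Called genes lie mainly among the targets, the largest role with 30 of the 76 genes. No receptor or SMAD gene is coloured, where 6.27% of all genes tested were called. The list was drawn up with earlier results of these data known.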

How the data were processed

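Gene-level RNA-seq counts of 6 libraries (3 DMSO, 3 Azeliragon) were analysed. The authors deposited raw counts per gene, and STAR 2.6.1d, featureCounts 1.5.0-p3, limma and GRCh38 are named without their roles, per the submitters' processing notes. For the annotation, the strand setting and reads with several matches, the sources used here give nothing. Of 58735 row names, 58722 were gene names of GENCODE 29, which gave coordinates and lengths. The 2 rows with date-like names, with 0% of the counts, were not used.

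Genes were filtered with filterByExpr, scaled by TMM and compared with the edgeR 4.0.16 quasi-likelihood test (R 4.3.3) with treatment as the only term, and p-values were adjusted over all 16081 genes. Standard errors were computed from the fold change and its F statistic. One read was worth 0.0222 to 0.0241 CPM. Alternatives were RLE scaling, library totals, no filter or a stricter one (mean count of 50, and 1 CPM in 3 libraries), limma-voom 3.58.1, DESeq2 1.42.0, a replicate block, each library left out, and removal of trends on GC content and transcript length. Shares and ratios were compared by exact permutation tests. Likeness of profiles used log2 (CPM + 0.1). Scripts were tested on simulated data. No libraries of a condition were duplicates (chi-square over its degrees of freedom 4.60 or more for each pair).

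The 10 genes, the list of 89 further genes, the tests and the naming rule were chosen with earlier results of these data known. The text names the 10 genes, every called gene of the list, up to 3 abundant genes per role that were not called, and the 3 genes nearest in profile to TGFBI and to PMEPA1. One called gene of the list is not reported here. CDKN2B, NOX4, TGFBR3, SP1, EP300, SMAD6, PPM1A, HNRNPUL1, NKILA and TGFB2-OT1 were named after their values were seen. Python 3.11.15 and matplotlib 3.10.9 drew the figures.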

Additional observations from a re-analysis of the deposited data

How the results depend on the processing

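The falls of TGFB1, PMEPA1 and TGFBI kept direction and call under the 8 other settings and with each library left out. With libraries scaled by their totals, TGFB2 did not pass (log2 fold change 0.45), so 0 of the 10 genes were called higher. In that setting 5.8% of all genes were called in either direction. LTBP2 passed without the filter on low counts (-0.33) and with the GC and length trend removed (-0.36). With each library left out in turn, log2 fold changes lay between 0.35 and 0.57 for TGFB2, -0.75 and -0.56 for LTBP3, -0.56 and -0.40 for SKIL, -0.43 and -0.12 for LTBP2, -0.039 and 0.096 for TGFBR1, -0.14 and 0.071 for TGFBR2 and 0.035 and 0.15 for SKI. In those sets 3 to 6 of the 10 genes were called, 3 to 5 lower and 0 to 1 higher. Of the further pathway genes 11 to 36 were called, 9 to 17 lower and 2 to 19 higher. The share called over all genes ran from 2.68% to 23.7% over the same sets. The further genes called higher numbered 12 without the filter and 10 with the trend removed, where 5.78% and 10.6% of all genes were called in either direction. With the trend removed BMPR1A had a log2 fold change of -0.065. Over the sets of 5 libraries the sign also turned for TGFB3 (-0.022 to 0.25), ITGAV (-0.22 to 0.025), ACVR1 (-0.045 to 0.053), BMPR1A (-0.044 to 0.15), SMURF1 (-0.10 to 0.035), FN1 (-0.15 to 0.12) and ITGB1 (-0.039 to 0.14), none of which passed in the fit on all 6 libraries.

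The replicate letters are shared by the conditions, but same-letter libraries deviated together by correlations of only 0.03, 0.02 and -0.04 for a, b and c, and DMSO a correlated best with Azeliragon c, so the letters are not taken as pairs. With the replicate block 908 genes were called in place of 1009, SKIL stood at -0.48 with an edgeR adjusted p of 0.0532, and 5 of the 10 genes passed. The block also ended the calls of GDF11 (edgeR adjusted p = 0.0657) and TAGLN (0.0909). With shares and ratios taken within letters, TGFB2 gained 4.58 percentage points (exact permutation p = 0.25, the smallest that 3 pairs can give). Dividing by the longest transcript in place of the exon union, chosen after seeing the data, turned no ratio.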
